A study of Rattus norvegicus with 40 samples.

Results

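The cytochrome P450 genes of rat kidney were described here across 40 microarrays. They were taken as the genes whose symbol has the form Cyp, number, letter, number, leaving out Cyp24a1 and Cyp27b1, and for which both arrays of 1 or more strain by compound groups had a probe marked good by the scanner (called here a good flag). Of 12198 named genes on the array 58 had such a symbol and 46 met the flag condition. The 12 others (Cyp11b1, Cyp19a1, Cyp1a2, Cyp2a3, Cyp2b21, Cyp2c12, Cyp2c13, Cyp3a2, Cyp3a62, Cyp4f17, Cyp4f4 and Cyp7a1) are not described further. The 46 genes comprised 6 arachidonate omega-hydroxylases, 8 epoxygenases, 4 other fatty acid hydroxylases, 2 retinoic acid hydroxylases, 4 genes of sterol and bile acid metabolism, 3 genes of steroid hormone synthesis, 18 genes of drug and xenobiotic metabolism and the orphan Cyp20a1.

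The study used single-colour CodeLink arrays of kidney RNA from male rats at 16 weeks of age. SHRSP/Izm rats (SHRSP), which are spontaneously hypertensive and stroke-prone, were set against Wistar-Kyoto rats (WKY/Izm, here WKY), the normotensive strain of related descent. In each strain there were 2 arrays for each of 6 drugs and 4 vehicles. The drugs, in mg per kg and day, were the angiotensin receptor blocker candesartan (5), the thiazide diuretic chlorothiazide (20), the beta and alpha blocker carvedilol (50), the converting enzyme inhibitor enalapril (20), the calcium channel blocker amlodipine (20) and the direct vasodilator hydralazine (10). The vehicles were Solvent A, Solvent B, Solvent C and H2O. Per the labels, Solvent A held polyethylene glycol, ethanol and sodium bicarbonate, and Solvent B sodium hydroxide. Solvent C is labelled MC, which the labels do not spell out. The labels do not pair drugs with vehicles, so a drug was set against the vehicle scanned in the same session (candesartan with Solvent A, chlorothiazide with Solvent B, carvedilol with Solvent C, enalapril with H2O, save that WKY enalapril array 2 was scanned in session 5 and not in session 1), and amlodipine and hydralazine, scanned without a vehicle, against H2O. The label of each array names 2 animals without saying if RNA was pooled, so p-values measure the spread between arrays.

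Cytochrome P450 enzymes are haem proteins of the endoplasmic reticulum and mitochondria that insert an oxygen atom into lipids, steroids and foreign compounds, with electrons supplied by a reductase. In the rat kidney, CYP4A and CYP4F enzymes convert arachidonic acid to its omega-hydroxylated product, which constricts small renal vessels and inhibits tubular sodium transport, while CYP2C and CYP2J enzymes make epoxyeicosatrienoic acids, which dilate vessels. Soluble epoxide hydrolase, encoded by Ephx2, turns those epoxides into diols. The proximal tubule holds much of this activity. Other members clear retinoic acid, oxidise sterols or handle drugs.

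RefSeq promoter sequences (assembly GRCr8, 250 bases before to 50 after the gene's start) are shown for 4 members whose strain differences are given in detail below, because they show the omega-hydroxylase, epoxygenase and retinoic acid classes. Cyp4a8 and Cyp4a3 both lie on chromosome 5. The Cyp4a8 window is chr5:133970177-133970476 on the minus strand, that of Cyp4a3 chr5:134352187-134352486 on the minus strand, that of Cyp2c11 chr1:246174966-246175265 on the plus strand and that of Cyp26b1 chr4:118616127-118616426 on the minus strand. Capitals mark the nuclear receptor half-site AGGTCA and the TATA box TATAAA, each searched on both strands.
Cyp4a8: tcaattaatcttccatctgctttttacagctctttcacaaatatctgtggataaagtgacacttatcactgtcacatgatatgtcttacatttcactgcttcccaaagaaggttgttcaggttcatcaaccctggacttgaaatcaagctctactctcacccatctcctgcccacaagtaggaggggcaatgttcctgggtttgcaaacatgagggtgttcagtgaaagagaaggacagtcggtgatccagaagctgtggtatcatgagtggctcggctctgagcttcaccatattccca
Cyp4a3: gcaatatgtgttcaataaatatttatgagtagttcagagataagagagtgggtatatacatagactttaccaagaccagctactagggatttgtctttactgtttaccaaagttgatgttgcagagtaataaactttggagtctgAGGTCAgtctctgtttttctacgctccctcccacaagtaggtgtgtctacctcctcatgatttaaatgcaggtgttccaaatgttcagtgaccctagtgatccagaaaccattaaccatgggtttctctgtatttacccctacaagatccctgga
Cyp2c11: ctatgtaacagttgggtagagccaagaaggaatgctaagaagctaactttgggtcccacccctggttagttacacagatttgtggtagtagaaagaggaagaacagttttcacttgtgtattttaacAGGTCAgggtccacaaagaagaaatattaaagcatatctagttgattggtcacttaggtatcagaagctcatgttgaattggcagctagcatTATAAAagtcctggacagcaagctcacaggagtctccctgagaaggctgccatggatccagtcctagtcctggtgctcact
Cyp26b1: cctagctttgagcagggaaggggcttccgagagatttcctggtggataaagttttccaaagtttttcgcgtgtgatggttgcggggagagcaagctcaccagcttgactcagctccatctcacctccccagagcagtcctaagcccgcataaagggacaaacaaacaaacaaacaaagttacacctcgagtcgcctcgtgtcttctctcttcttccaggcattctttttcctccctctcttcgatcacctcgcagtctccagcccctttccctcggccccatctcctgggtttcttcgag
The half-site occurred in the windows of Cyp4a3 and Cyp2c11 and not in those of Cyp4a8 and Cyp26b1, and the TATA box in that of Cyp2c11 alone among the 4. The half-site was held by 16.2% and the TATA box by 14.2% of the 33469 promoters listed. Promoters were listed for 39 of the 46 genes, and 12 of these held the half-site and 9 the TATA box. A match describes these letters and is neither a bound site nor a cause.

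Values are log2 of the authors' normalised intensity after quantile scaling between arrays, with a floor of 0.38 before the logarithm, so that -1.40 is the floor. A good flag was given to 59.3% to 72.6% of an array's probes. Of the 46 genes 32 had it on all 40 arrays, 8 on 30 to 39 and 6 on fewer. Differences were fitted with limma over all 24993 probes tested and all 20 groups, each gene on its brightest probe, and were called at an adjusted p under 0.05. Of the 46 genes 45 were tested. The exception was Cyp2a1, a liver-type testosterone hydroxylase of the rat, whose spot had no value on the 6 arrays of the first slide series. Its deposited intensity was 2.42 to 6.06 on 6 SHRSP vehicle arrays and 1.8 to 4.07 on 6 WKY vehicle arrays, ranges that overlapped. The arrays came from 3 slide series, a name used here for arrays whose titles share their leading digits. H2O arrays and the SHRSP enalapril arrays were on series 1, candesartan and Solvent A on series 3, and all other arrays, those of WKY with enalapril included, on series 2. Many P450 genes belong to families of near-identical copies (Cyp4a, Cyp2b, Cyp2c, Cyp2d, Cyp3a), and which copies a probe measures was not tested.

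In the vehicle arrays 11 of the 45 P450 genes tested, or 24.4%, differed by strain, with 8 higher in SHRSP and 3 lower, beside 21.8% of all probes called. Each difference is in log2 units, SHRSP minus WKY or drug minus vehicle, with its standard error. The largest difference was in Cyp26b1, which clears retinoic acid, at 1.34 ± 0.11 (adjusted p = 1.53e-09), and the lowest in the epoxygenase Cyp2c11, at -0.60 ± 0.11 (adjusted p = 0.000196). The omega-hydroxylases were divided, with Cyp4a1 and Cyp4a8 higher and Cyp4a3 and Cyp4f5 lower in SHRSP. The median change of the 45 genes was -0.00039, beside -2.08e-05 for all probes, and the median size of a change 0.13, beside 0.09. In whole kidney, fewer cells of a type and less RNA per cell cannot be told apart.

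**Figure D1:**
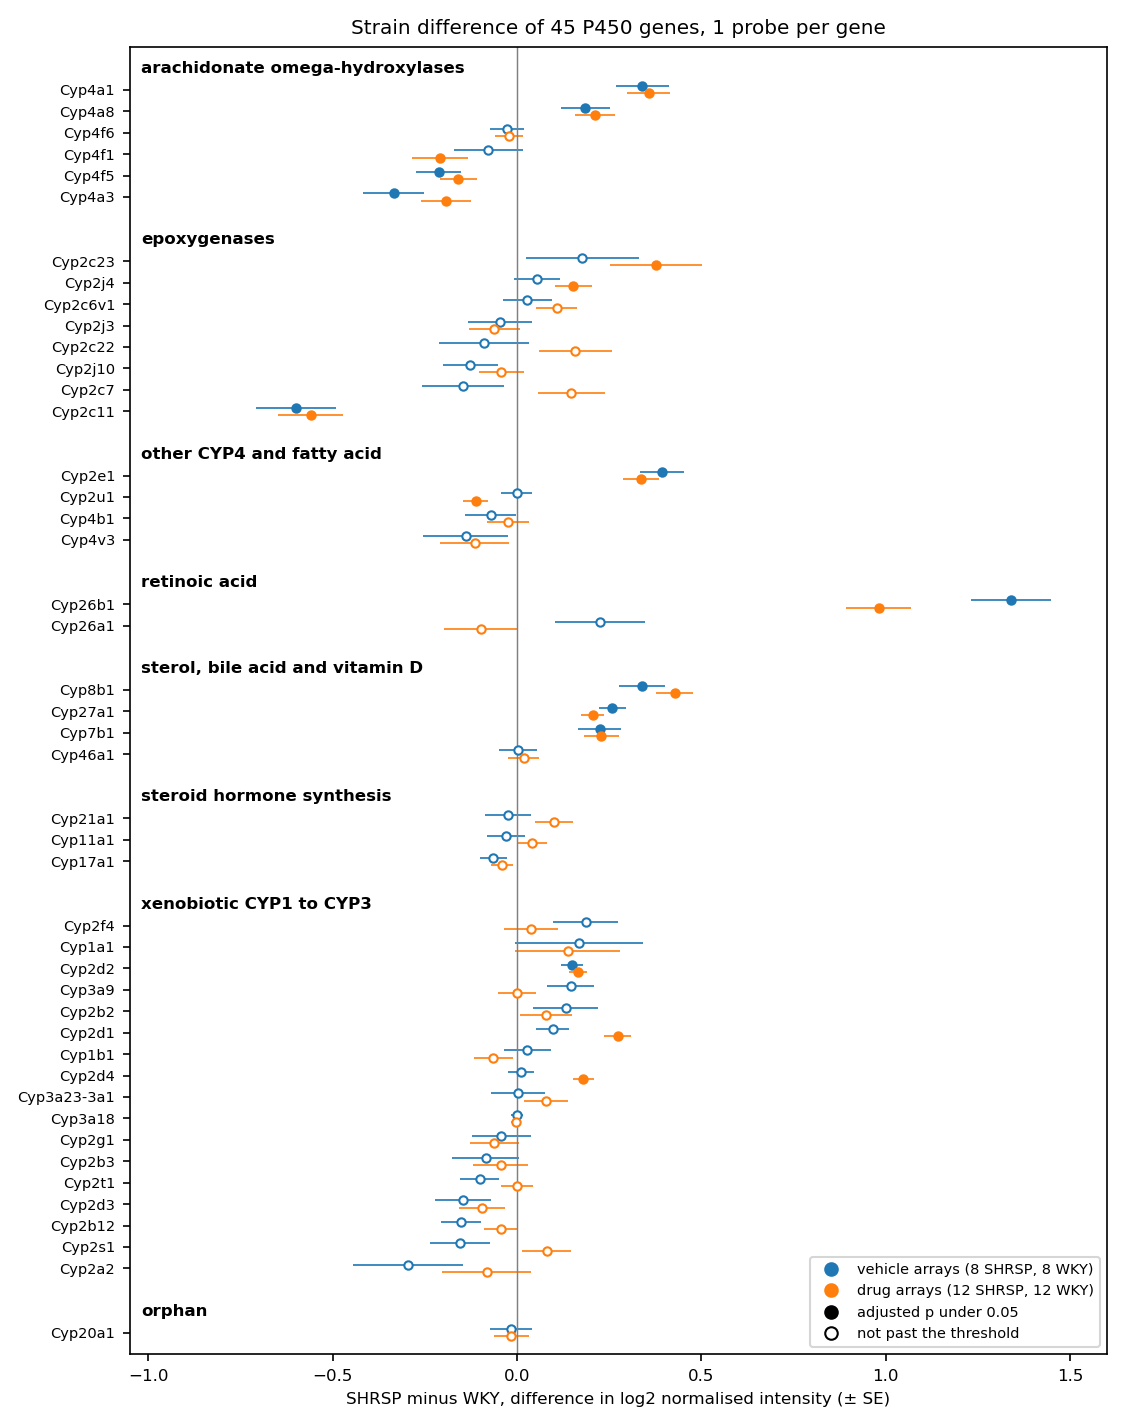
Difference in log2 normalised intensity, SHRSP minus WKY, with its standard error, for the 45 P450 genes tested by class, in vehicle arrays (8 SHRSP, 8 WKY) and drug arrays (12 SHRSP, 12 WKY). Filled points passed the threshold: 11 in the vehicle arrays and 17 in the drug arrays, with Cyp26b1 the farthest right and Cyp2c11 the farthest left.

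Of the 6 omega-hydroxylases, 2 were higher and 2 lower in SHRSP vehicle arrays, beside 21.8% of all probes called. Cyp4a1, a fatty acid omega-hydroxylase induced by peroxisome proliferators in rat liver, read 5.32 to 5.76 with a median of 5.53 on the 8 SHRSP vehicle arrays, against 4.97 to 5.41 with a median of 5.20 on the 8 WKY vehicle arrays. The difference was 0.34 ± 0.07 (adjusted p = 0.00104). The SHRSP arrays were mostly above those of WKY, with some overlap. Cyp4a3, which like Cyp4a1 makes the omega-hydroxylated product of arachidonic acid in rat kidney, read 7.77 to 8.17 with a median of 8.08 in SHRSP, against 8.27 to 8.43 with a median of 8.39 in WKY. It was lower in SHRSP, at -0.33 ± 0.08 (adjusted p = 0.00426), and the groups did not overlap. Its probe was among the brightest, at rank 19 to 40 on SHRSP vehicle arrays, against rank 8 to 15 on WKY vehicle arrays. Before quantile scaling its deposited intensities overlapped, at 193 to 333 in SHRSP, against 207 to 468 in WKY. It had a good flag on 15 of these 16 arrays, and saturation of the spot was not tested. Of the 45 genes 2 had vehicle groups that did not overlap, Cyp4a3 and Cyp26b1, or 4.44%, beside 4.65% of all probes with a value on these 16 arrays. Cyp4f5, of the subfamily that hydroxylates leukotriene B4, read 0.44 to 1.01 with a median of 0.81 in SHRSP, against 0.62 to 1.30 with a median of 1.01 in WKY, a difference of -0.21 ± 0.06 (adjusted p = 0.0145) with overlapping groups, and its call was lost without 1 of the 16 arrays. Cyp4f1 (-0.08 ± 0.09, adjusted p = 0.637) and Cyp4f6 (-0.03 ± 0.05, adjusted p = 0.749), of the same subfamily, did not pass.

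Cyp4a8, an omega-hydroxylase known from rat kidney, was measured by 3 probes that gave unlike strain differences. Its brightest probe, GE1182538, read 5.71 to 6.14 with a median of 5.95 on SHRSP vehicle arrays, against 5.56 to 6.02 with a median of 5.78 on WKY vehicle arrays, a difference of 0.19 ± 0.07 (adjusted p = 0.0479). On probe GE1163956 the values were 5.37 to 5.55 with a median of 5.45 in SHRSP, against 5.25 to 5.56 with a median of 5.37 in WKY, and the difference of 0.07 ± 0.05 (adjusted p = 0.37) did not pass. On both of these probes the strains overlapped. On probe GE21805 they lay far apart, at 2.45 to 4.36 with a median of 3.32 in SHRSP, against -0.39 to 1.28 with a median of 0.41 in WKY, a difference of 2.89 ± 0.21 (adjusted p = 1.63e-10). In the drug arrays the differences were 0.21 ± 0.05 on the brightest probe, 0.16 ± 0.04 on GE1163956 and 2.59 ± 0.17 on GE21805, all past the threshold. SHRSP exceeded WKY on GE21805 within each of the 10 treatments, by 2.18 to 3.14. What the probes' sequences hold was not tested. The call on the brightest probe was lost when any of 14 of the 16 vehicle arrays was left out, at a change of 0.16 to 0.21 over all alternatives.

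Of the 8 epoxygenases, 1 differed between the strains in the vehicle arrays, beside 21.8% of all probes called. Cyp2c11, the male-specific steroid hydroxylase of rat liver that also epoxidises arachidonic acid, read 3.66 to 4.30 with a median of 4.02 in SHRSP, against 4.06 to 4.98 with a median of 4.68 in WKY. Most SHRSP arrays lay below most WKY arrays, and the ranges overlapped. Cyp2c23, the main arachidonate epoxygenase of rat kidney, read -0.43 to 0.34 with a median of 0.01 in SHRSP, against -0.79 to 0.46 with a median of -0.25 in WKY, and its difference of 0.18 ± 0.15 (adjusted p = 0.477) did not pass, nor did -0.02 ± 0.07 (adjusted p = 0.881) on its other probe. The remaining 6 did not pass either. Cyp2c6v1 differed by 0.03 ± 0.07 (adjusted p = 0.835), with -0.05 ± 0.18 on its other probe, Cyp2c7 by -0.15 ± 0.11 (0.41) and Cyp2c22 by -0.09 ± 0.12 (0.681). In the Cyp2j subfamily the differences were -0.05 ± 0.09 for Cyp2j3 (adjusted p = 0.783), 0.05 ± 0.06 for Cyp2j4 (0.623) and -0.13 ± 0.07 for Cyp2j10 (0.259). Cyp2j3 and Cyp2c7 were dim, with a good flag on 27 and 29 of the 40 arrays. Cyp2j3, Cyp2j4 and Cyp2j10 lie on chromosome 5 and the Cyp2c genes on chromosome 1 in the RefSeq table.

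**Figure D2:**
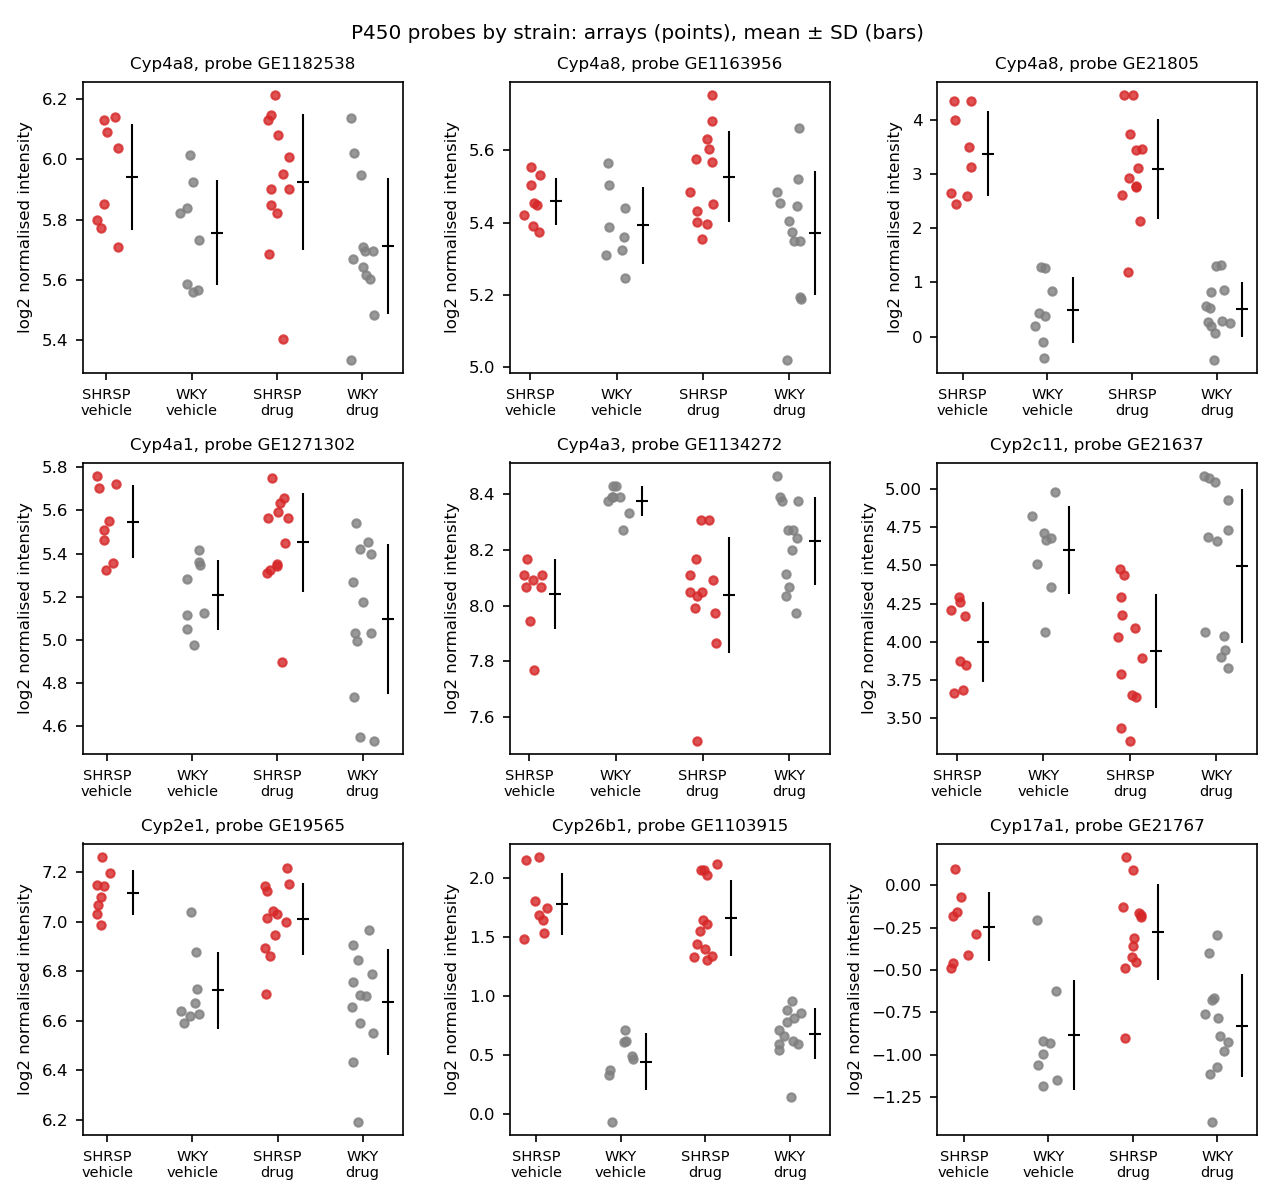
Log2 normalised intensity on every array for 9 P450 probes, SHRSP (red) left of WKY (grey), vehicle arrays (8 a strain) left of drug arrays (12 a strain), with the mean ± SD. The 3 Cyp4a8 probes differ in how far the strains stand apart: by 0.19 and 0.07 on the upper left and middle panels and by 2.89 on the upper right panel in vehicle arrays.

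Both retinoic acid hydroxylases were measured, and 1 differed, beside 21.8% of all probes called. Cyp26b1 read 1.48 to 2.18 with a median of 1.72 on SHRSP vehicle arrays, against -0.07 to 0.71 with a median of 0.47 on WKY vehicle arrays. No SHRSP array was as low as any WKY array. Its other probe gave 1.23 ± 0.08 (adjusted p = 7.55e-11). Within the 10 treatments the strain difference on the brighter probe ran from 0.59 to 1.80. Cyp26a1, which clears the same substrate, differed by 0.23 ± 0.12 (adjusted p = 0.216) and did not pass.

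Among the other fatty acid hydroxylases Cyp2e1, the ethanol-inducible form, was higher in SHRSP. It read 6.99 to 7.26 with a median of 7.12 in SHRSP vehicle arrays, against 6.59 to 7.04 with a median of 6.65 in WKY vehicle arrays, a difference of 0.39 ± 0.06 (adjusted p = 2.05e-05), with 0.40 ± 0.05 on its other probe. The ranges overlapped at 1 WKY array. Cyp4b1, Cyp4v3 and Cyp2u1 did not pass, at -0.07, -0.14 and -0.00039.

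Of 4 genes of sterol and bile acid metabolism 3 were higher in SHRSP, beside 21.8% of all probes called in either direction. Cyp27a1, the mitochondrial sterol hydroxylase that opens the alternative bile acid pathway, differed by 0.26 ± 0.04 (adjusted p = 1.06e-05), and Cyp7b1, the oxysterol hydroxylase that follows it, by 0.22 ± 0.06 (adjusted p = 0.00645). Cyp8b1, the hydroxylase of cholic acid synthesis, had a good flag on 3 of 8 SHRSP vehicle arrays and on none of the 8 WKY vehicle arrays. It read -1.40 to -0.47 with a median of -1.18 in SHRSP and was at the floor on every WKY vehicle array. Not well above background in WKY, it was at least 1.18-fold higher in SHRSP. Only SHRSP arrays, vehicle or drug, gave it a good flag, so it was tested through the strain where it is high. Its strain calls are counted here but are no separate support for a difference. Cyp46a1, which hydroxylates cholesterol in brain, did not pass at 0.0035. In the genes of steroid hormone synthesis, Cyp17a1 did not pass on its brighter probe at -0.06 ± 0.04 (adjusted p = 0.251), while its other probe, GE21767, was higher in SHRSP by 0.64 ± 0.10 (adjusted p = 5.54e-05). That probe read -0.49 to 0.09 with a median of -0.23 in SHRSP, against -1.18 to -0.21 with a median of -0.96 in WKY, so the probes of this gene disagreed. Cyp21a1, which hydroxylates progesterone on the way to corticosteroids, and Cyp11a1, which cuts the cholesterol side chain, differed by -0.03 and -0.03 and did not pass. Of the 17 drug-metabolising genes tested 1 passed, beside 21.8% of all probes called. This was Cyp2d2 at 0.15 ± 0.03 (adjusted p = 0.000656), and the other 16 had changes of -0.29 (Cyp2a2) to 0.19 (Cyp2f4).

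In the drug arrays, which share no array with the vehicle arrays, 17 of the 45 genes differed by strain, with 12 higher in SHRSP and 5 lower, beside 26.1% of all probes. All 11 genes called in the vehicle arrays were called here in the same direction, which is 100% of the vehicle calls and 64.7% of the drug array calls. The same overlap over all probes was not counted, and both comparisons use the estimate of spread from 1 fit. So the overlap is not read as particular to P450 genes. Cyp26b1 read 1.30 to 2.12 with a median of 1.58 on 12 SHRSP drug arrays, against 0.14 to 0.95 with a median of 0.68 on 12 WKY drug arrays. Its difference of 0.98 ± 0.09 (adjusted p = 7.52e-09) again left no overlap, which held for 1 gene of 45, or 2.22%, beside 2.78% of all probes with a value on these 24 arrays. Its other probe differed by 0.88 ± 0.07. Cyp2c11 was at 3.35 to 4.47 with a median of 3.96 in SHRSP, against 3.83 to 5.09 with a median of 4.67 in WKY, and differed by -0.56 ± 0.09 (adjusted p = 3.12e-05). Cyp4a1 differed by 0.36 ± 0.06 (adjusted p = 5.07e-05), Cyp2e1 by 0.34 ± 0.05 and Cyp4a3 by -0.19 ± 0.07 (adjusted p = 0.037). The call of Cyp4a3 in the drug arrays was lost when any of 15 of the 24 arrays was left out. Cyp8b1, with a good flag on 8 of 12 SHRSP drug arrays and none of 12 WKY drug arrays, was at least 1.33-fold higher in SHRSP.

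The 6 genes called in the drug arrays and not in the vehicle arrays were Cyp2c23 (0.38 ± 0.12, adjusted p = 0.0276), Cyp2j4 (0.15 ± 0.05), Cyp2d1 (0.27 ± 0.04), Cyp2d4 (0.18 ± 0.03), Cyp2u1 (-0.11 ± 0.03) and Cyp4f1 (-0.21 ± 0.08). Cyp2c23 read -0.92 to 0.57 with a median of 0.14 in SHRSP, against -1.12 to 0.61 with a median of -0.29 in WKY, and its other probe did not pass at 0.05 ± 0.06 (adjusted p = 0.597). The call of Cyp2c23 was lost when any of 7 of the 24 arrays was left out, that of Cyp2j4 with any of 12 and that of Cyp4f1 with any of 16. With enalapril, whose arrays lay on different slide series in the strains, Cyp4f1 differed by -0.90 ± 0.19, and in the other 5 drugs by -0.39 to 0.32. With the enalapril groups left out of the contrast 15 of the 45 genes were called. A difference in the strain effect between vehicle and drug arrays was tested for 3 drugs. These had a vehicle on the same slide series in both strains. By limma 0 of 45 genes passed, beside 0.004% of all probes, and 2 genes had an unadjusted p under 0.05. The lowest p were those of Cyp2d4 (0.14 ± 0.06, adjusted p = 0.974), Cyp2j10 (0.27 ± 0.12, adjusted p = 0.998) and Cyp2d1 (0.15 ± 0.07, 1).

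The strain difference was also read within each of the 10 treatments. There 2 arrays of a strain meet 2 of the other on the same slide series, except with enalapril. Cyp26b1, Cyp4a1, Cyp4a8, Cyp2e1, Cyp27a1 and Cyp2d2 were higher in SHRSP in all 10. Cyp4a1 ranged from 0.15 to 0.59, Cyp2e1 from 0.16 to 0.60 and Cyp27a1 from 0.01 to 0.37. Cyp2c11, Cyp4a3 and Cyp4f5 were lower in SHRSP in 9 of 10. Cyp2c11 ranged from -1.01 to 0.10 and Cyp4a3 from -0.40 to 0.14. With candesartan Cyp2c11 differed by -0.45, with hydralazine by -0.56 and with amlodipine by -1.01.

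Among 20 tested genes that supply, consume or release the substrates of these enzymes, 5 were higher and 4 lower in SHRSP vehicle arrays, beside 21.8% of all probes called, and 4 higher and 5 lower in the drug arrays, beside 26.1%. Ephx2, the soluble epoxide hydrolase, read 1.95 to 2.28 with a median of 2.12 on SHRSP vehicle arrays, against 5.07 to 5.36 with a median of 5.22 on WKY vehicle arrays. It was lower in SHRSP, at -3.09 ± 0.05 (adjusted p = 8.29e-24), with no overlap, and at -3.04 ± 0.04 in the drug arrays. Pla2g4a, the cytosolic phospholipase that frees arachidonic acid, had a good flag on none of the 8 SHRSP vehicle arrays and on all 8 of WKY. It was at least 6.24-fold lower in SHRSP, where it was not well above background. Pla2g4a was tested through its WKY groups alone, and its SHRSP vehicle values all lay at the floor without spread, so no p is given. Ephx2 and Pla2g4a each had 1 probe. In the vehicle arrays microsomal epoxide hydrolase (Ephx1) differed by -0.25 ± 0.09, the secreted phospholipase Pla2g2a by 0.70 ± 0.08, haem oxygenase Hmox1 by 0.82 ± 0.17 and cytochrome b5 type B (Cyb5b), an electron donor, by 0.44 ± 0.05, all past the threshold. In the drug arrays the differences were -0.37 ± 0.07 for Ephx1, 0.33 ± 0.06 for Pla2g2a and 0.54 ± 0.04 for Cyb5b, all past the threshold, and 0.22 ± 0.14 for Hmox1 (adjusted p = 0.27), which did not pass. Of 16 tested regulators 1 passed in the vehicle arrays, beside 21.8% of all probes called, and 6 in the drug arrays, beside 26.1%. The constitutive androstane receptor Nr1i3 was lower in SHRSP in both. On SHRSP vehicle arrays it read -1.40 to -0.85, with a good flag on 2 of 8 and the median at the floor. On WKY vehicle arrays it read 0.26 to 1.66, all 8 with a good flag. On the drug arrays it read -1.40 to -1.35 in SHRSP, with a good flag on 2 of 12, against -0.36 to 1.83 in WKY. Like Pla2g4a, Nr1i3 was tested through its WKY groups alone, so no p is given, and the size of these differences depends on the floor. The peroxisome proliferator receptor Ppara was higher in SHRSP drug arrays by 0.28 ± 0.09. In the vehicle arrays Ppara did not pass at 0.22 ± 0.11.

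Markers of the cell types that could carry these genes were summed for each array on the linear normalised scale. Counts of markers called between the strains stand beside 21.8% of all probes called in the vehicle arrays. The 19 proximal tubule markers, of which 2 were higher and 3 lower in SHRSP vehicle arrays, summed to 2765 to 2996 in SHRSP, against 2755 to 3030 in WKY, so the ranges overlapped. All 7 macrophage markers were higher in SHRSP, with sums of 193 to 260 in SHRSP, against 123 to 164 in WKY. Of 6 smooth muscle and endothelial markers 5 were higher, with sums of 71.3 to 75.7 in SHRSP, against 48.6 to 55.4 in WKY. The 6 adipocyte markers, 1 higher and 1 lower, summed to 45.1 to 60.2 in SHRSP, against 61 to 83 in WKY. Such sums weigh the brightest markers most. By mean deposited intensity these were Cidec (40.2, beside 3.22 for Adipoq) among the adipocyte markers and Cd74 (121) among those of macrophages. The 3 glomerulus markers, 2 of them higher, summed to 24.1 to 25.9 in SHRSP, against 19 to 23.6 in WKY. Of 5 markers of the thick ascending limb and distal tubule 2 were higher, with sums of 196 to 270 in SHRSP, against 150 to 207 in WKY. The 6 collecting duct markers, 2 higher and 1 lower, summed to 64.6 to 81.5 in SHRSP, against 59.5 to 74.4 in WKY. The part of these in the P450 differences was not tested. Liver and adrenal gland also express many P450 genes. Of 8 hepatocyte markers on the array 2 were tested (Tat and Apoc3, which other tissues express too), and albumin, Apoa1 and Fgb had a good flag on 1, 0 and 0 of 40 arrays. Of the 5 adrenal markers tested none was called between the strains by limma. Of the 7 adrenal markers on the array, Akr1b7 had no good flag on any array, Pnmt had one on 3, Mrap and Inha on 39 and Th, Dbh and Chga on all 40.

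Candesartan, chlorothiazide and carvedilol were each compared with the vehicle of the same session and slide series, 4 arrays against 4 over both strains. No P450 gene of the 45 was called by limma in any of these, with 2, 5 and 4 genes at an unadjusted p under 0.05, beside 0.052%, 0.112% and 0.148% of all probes called. With candesartan the smallest p were those of Cyp2d4 (0.11 ± 0.05, adjusted p = 1), Cyp4f5 (0.19 ± 0.09) and Cyp2d2 (0.08 ± 0.04). With chlorothiazide they were those of Cyp2g1, the olfactory form (-0.41 ± 0.11, adjusted p = 0.4), Cyp2b12 (-0.20 ± 0.08) and Cyp7b1 (0.19 ± 0.08). With carvedilol they were those of Cyp8b1 (adjusted p = 0.472), which had no good flag on these 8 arrays and so no fold, Cyp2c6v1 (-0.24 ± 0.09) and Cyp2e1 (-0.18 ± 0.08). The 6 omega-hydroxylases had changes of -0.06 to 0.19 with candesartan, -0.05 to 0.07 with chlorothiazide and -0.02 to 0.13 with carvedilol. For the 8 epoxygenases the ranges were -0.17 to 0.22, -0.15 to 0.20 and -0.32 to 0.21 in the same order of drugs. At each end of the carvedilol range stood Cyp2c11 (-0.32 ± 0.15) and Cyp2j10 (0.21 ± 0.10), neither past the threshold.

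**Figure D3:**
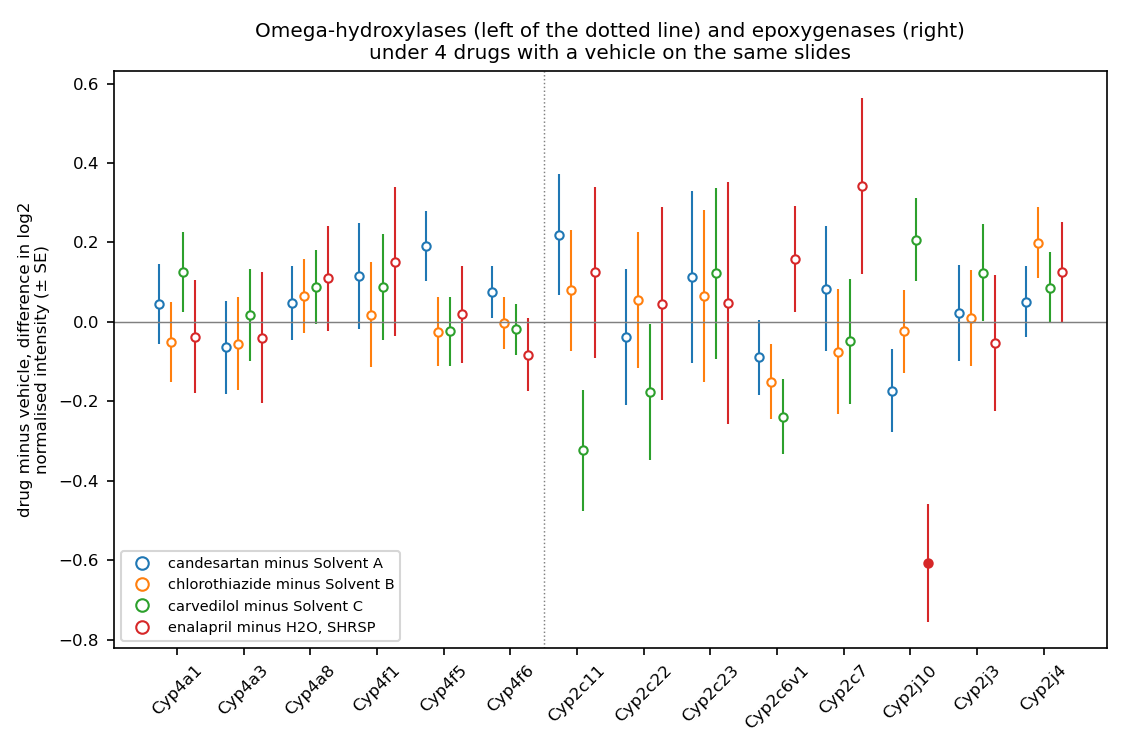
Drug minus vehicle difference in log2 normalised intensity with its standard error for the 6 omega-hydroxylases and 8 epoxygenases under candesartan, chlorothiazide and carvedilol (4 arrays against 4) and under enalapril in SHRSP (2 against 2). The 1 filled point, past the threshold, is Cyp2j10 under enalapril at -0.61.

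Values by array are given for 3 of these genes as examples, chosen after the values were seen. Cyp4a3 read 7.87 and 8.17 in SHRSP and 8.39 and 8.37 in WKY with candesartan, against 8.17 and 8.07 in SHRSP and 8.39 and 8.43 in WKY with Solvent A, a difference of -0.06 ± 0.12. With chlorothiazide Cyp4a1 read 5.35 and 5.32 in SHRSP and 5.00 and 5.03 in WKY, against 5.36 and 5.46 in SHRSP and 5.12 and 4.97 in WKY with Solvent B, a difference of -0.05 ± 0.10. With carvedilol Cyp2c23 read 0.57 and 0.21 in SHRSP and 0.02 and 0.61 in WKY, against -0.15 and 0.21 in SHRSP and 0.46 and 0.40 in WKY with Solvent C, a difference of 0.12 ± 0.22. In each of these the arrays of drug and vehicle overlapped over both strains, although within SHRSP both chlorothiazide arrays of Cyp4a1 lay below both of Solvent B. In SHRSP 4 drugs had a vehicle on the same slide series (candesartan, chlorothiazide, carvedilol and enalapril). Averaged over them, 0 of 45 genes were called, with 6 at an unadjusted p under 0.05, beside 0.452% of all probes. The smallest p were those of Cyp2d4 (0.13 ± 0.04, adjusted p = 0.115), Cyp46a1 (0.12 ± 0.05) and Cyp2d1 (0.11 ± 0.04). In WKY, over candesartan, chlorothiazide and carvedilol, 0 genes were called and 4 were at an unadjusted p under 0.05, beside 0.032% of all probes. There the smallest p were those of Cyp2c6v1 (-0.25 ± 0.08, adjusted p = 0.645), Cyp26b1 (0.31 ± 0.13) and Cyp2g1 (-0.22 ± 0.09). Cyp2c6v1 was -0.01 in SHRSP.

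Enalapril was compared with H2O, and in SHRSP both were on the same slide series and scanned in the same session. In SHRSP 1 of 45 genes was called, beside 0.98% of all probes. Cyp2j10 read -0.38 and -0.39 with enalapril, against -0.0019 and 0.45 with H2O, and fell with a change of -0.61 ± 0.15 (adjusted p = 0.0477). The 2 enalapril arrays were nearly equal and lay below both H2O arrays, which differed widely from each other. The call was lost when any of 3 of the 4 arrays was left out. Next by p were Cyp2d2 (0.22 ± 0.06, adjusted p = 0.0863) and Cyp2d4 (0.23 ± 0.07, 0.144). The omega-hydroxylases ranged from -0.08 to 0.15 and none passed.

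Over both strains 2 of 45 genes were called for enalapril, both higher, beside 2.09% of all probes. Cyp4f1 read 1.95 and 2.13 in SHRSP and 2.82 and 3.07 in WKY with enalapril, against 1.93 and 1.85 in SHRSP and 1.30 and 2.11 in WKY with H2O, a difference of 0.69 ± 0.13 (adjusted p = 0.00937). The WKY enalapril arrays were above all others here. In WKY, where enalapril and H2O were on different slide series and 1 of the 2 enalapril arrays was scanned in another session, the change was 1.24 ± 0.19 (adjusted p = 0.000446), and in SHRSP, where they shared one, 0.15 ± 0.19 (adjusted p = 0.92). Cyp2d2, a drug-oxidising enzyme, read 5.44 and 5.41 in SHRSP and 5.27 and 5.22 in WKY with enalapril, against 5.25 and 5.16 in SHRSP and 5.16 and 5.05 in WKY with H2O, a difference of 0.18 ± 0.04 (adjusted p = 0.0262). Its change was 0.22 ± 0.06 in SHRSP and 0.14 ± 0.06 in WKY, and the call was lost when any of 4 of the 8 arrays was left out. The count for enalapril was 1 without SHRSP H2O array 2, SHRSP enalapril array 1, WKY H2O array 2 or WKY enalapril array 1, and 4 without SHRSP H2O array 1. Both calls were lost with scan session and slide series as a random block and when no other groups were fitted.

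Amlodipine and hydralazine were compared with H2O with the drugs on slide series 2 and H2O on series 1. Amlodipine was scanned in session 2, and of the 2 hydralazine arrays of each strain 1 was scanned in session 2 and 1 in session 5. Of 45 genes 17 were called for amlodipine, 9 higher and 8 lower, beside 31.4% of all probes, and 15 for hydralazine, 8 higher and 7 lower, beside 29.1%. The vehicles alone differed about as widely. Solvents B and C, on the same slide series as the drugs, set against H2O gave 16 of 45 genes, 10 higher and 6 lower, beside 30.3% of all probes. All 3 comparisons share the 4 H2O arrays. The members' shares of 37.8%, 33.3% and 35.6% lie near those of all probes. Drug, slide series and scan session cannot be told apart in the drug values against H2O. Nor can vehicle, slide series and scan session in those of the solvents against H2O. Solvents B and C were scanned in sessions 3 and 4, without amlodipine or hydralazine. Against these solvents drug, vehicle and scan session therefore cannot be told apart either. When the drugs were set against Solvents B and C instead, an alternative added after the data were seen, 7 genes were called for amlodipine and 4 for hydralazine. Of these, 5 for amlodipine (Cyp17a1, Cyp2e1, Cyp4a1, Cyp4b1 and Cyp4f1) and 2 for hydralazine (Cyp4b1 and Cyp4f1) were called in the same direction against H2O. The others were Cyp2j4 (0.26) and Cyp2b3 (0.43) for amlodipine and Cyp27a1 (-0.17) and Cyp2d1 (0.20) for hydralazine. With any array left out, 8 of the 17 amlodipine calls (Cyp4f1, Cyp4f6, Cyp4a1, Cyp2j10, Cyp2e1, Cyp4v3, Cyp17a1 and Cyp1b1) and 7 of the 15 hydralazine calls (Cyp4f1, Cyp4a8, Cyp2j10, Cyp2c6v1, Cyp2u1, Cyp17a1 and Cyp8b1) held. Cyp8b1, tested through SHRSP groups alone, is counted in the 17 and the 15 but is no separate support for a drug difference. Without WKY amlodipine array 1, or without SHRSP amlodipine array 2, 11 genes were called. With scan session as a fixed block 2 genes were called for amlodipine and 1 for hydralazine. For the genes called and given by array below, the change of the solvents against H2O stands beside those of the drugs. The exception is Cyp8b1, for which the range on the solvent arrays is given.

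Of the 6 omega-hydroxylases 4 were called for each drug, Cyp4f1 and Cyp4f6 higher and Cyp4a1 and Cyp4a8 lower. Of all probes 31.4% were called for amlodipine and 29.1% for hydralazine. Cyp4f1 read 3.64 and 3.35 in SHRSP and 3.11 and 3.25 in WKY with amlodipine, 3.07 and 3.02 in SHRSP and 3.59 and 3.29 in WKY with hydralazine, against 1.93 and 1.85 in SHRSP and 1.30 and 2.11 in WKY with H2O. Every drug array lay above every H2O array. Against H2O the differences were 1.54 ± 0.13 with amlodipine (adjusted p = 2.95e-08), 1.45 ± 0.13 with hydralazine (1.12e-07) and 0.88 ± 0.11 with Solvents B and C (8.89e-06). The vehicle arrays read 1.30 to 2.11 on slide series 1, 2.29 to 3.01 on series 2 and 1.49 to 2.24 on series 3. Against Solvents B and C on the same series, Cyp4f1 was higher by 0.66 ± 0.11 with amlodipine (adjusted p = 0.000954) and by 0.57 ± 0.11 with hydralazine (adjusted p = 0.00755), and each drug's 4 arrays lay above all 8 of those solvents. For hydralazine this was 0.65 on the arrays of session 2 and 0.48 on those of session 5. Cyp4f6 read 3.67 and 3.74 in SHRSP and 3.54 and 3.66 in WKY with amlodipine, 3.52 and 3.44 in SHRSP and 3.67 and 3.41 in WKY with hydralazine, against 3.33 and 3.40 in SHRSP and 3.23 and 3.29 in WKY with H2O. Here too no drug array was as low as an H2O array. The differences were 0.34 ± 0.07 with amlodipine (adjusted p = 0.000364), 0.20 ± 0.07 with hydralazine (0.025) and 0.19 ± 0.06 with Solvents B and C (0.0162), and against Solvents B and C neither drug passed, at 0.16 with amlodipine and 0.01 with hydralazine.

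Cyp4a1 read 4.90 and 5.34 in SHRSP and 4.74 and 4.53 in WKY with amlodipine, 5.31 and 5.45 in SHRSP and 4.55 and 5.03 in WKY with hydralazine, against 5.55 and 5.72 in SHRSP and 5.28 and 5.05 in WKY with H2O. Within each strain both amlodipine arrays lay below both H2O arrays. Cyp4a1 differed by -0.52 ± 0.10 with amlodipine (adjusted p = 0.000447), -0.31 ± 0.10 with hydralazine (0.0231) and -0.12 ± 0.09 with Solvents B and C (0.343). Against Solvents B and C the amlodipine change was -0.41 ± 0.09 (adjusted p = 0.00456) and that of hydralazine, -0.20, did not pass. Cyp4a8 read 5.69 and 5.90 in SHRSP and 5.48 and 5.64 in WKY with amlodipine, 5.95 and 5.40 in SHRSP and 5.67 and 5.33 in WKY with hydralazine, against 6.09 and 6.04 in SHRSP and 5.93 and 5.82 in WKY with H2O. The drug arrays overlapped those of H2O over both strains. The changes of Cyp4a8 were -0.29 ± 0.09 with amlodipine (adjusted p = 0.0203), -0.38 ± 0.09 with hydralazine (0.004) and -0.27 ± 0.08 with Solvents B and C (0.0136), and against Solvents B and C they were -0.02 and -0.11, neither past the threshold. The hydralazine value was 0.11 on the arrays of session 2 and -0.33 on those of session 5. On its other probes Cyp4a8 did not pass for amlodipine, at -0.09 and 0.55, or for hydralazine, at -0.05 and 0.06. Cyp4a3 and Cyp4f5 did not pass, with changes of -0.11 and 0.07 with amlodipine, -0.17 and -0.07 with hydralazine and -0.05 and -0.10 with Solvents B and C.

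**Figure D4:**
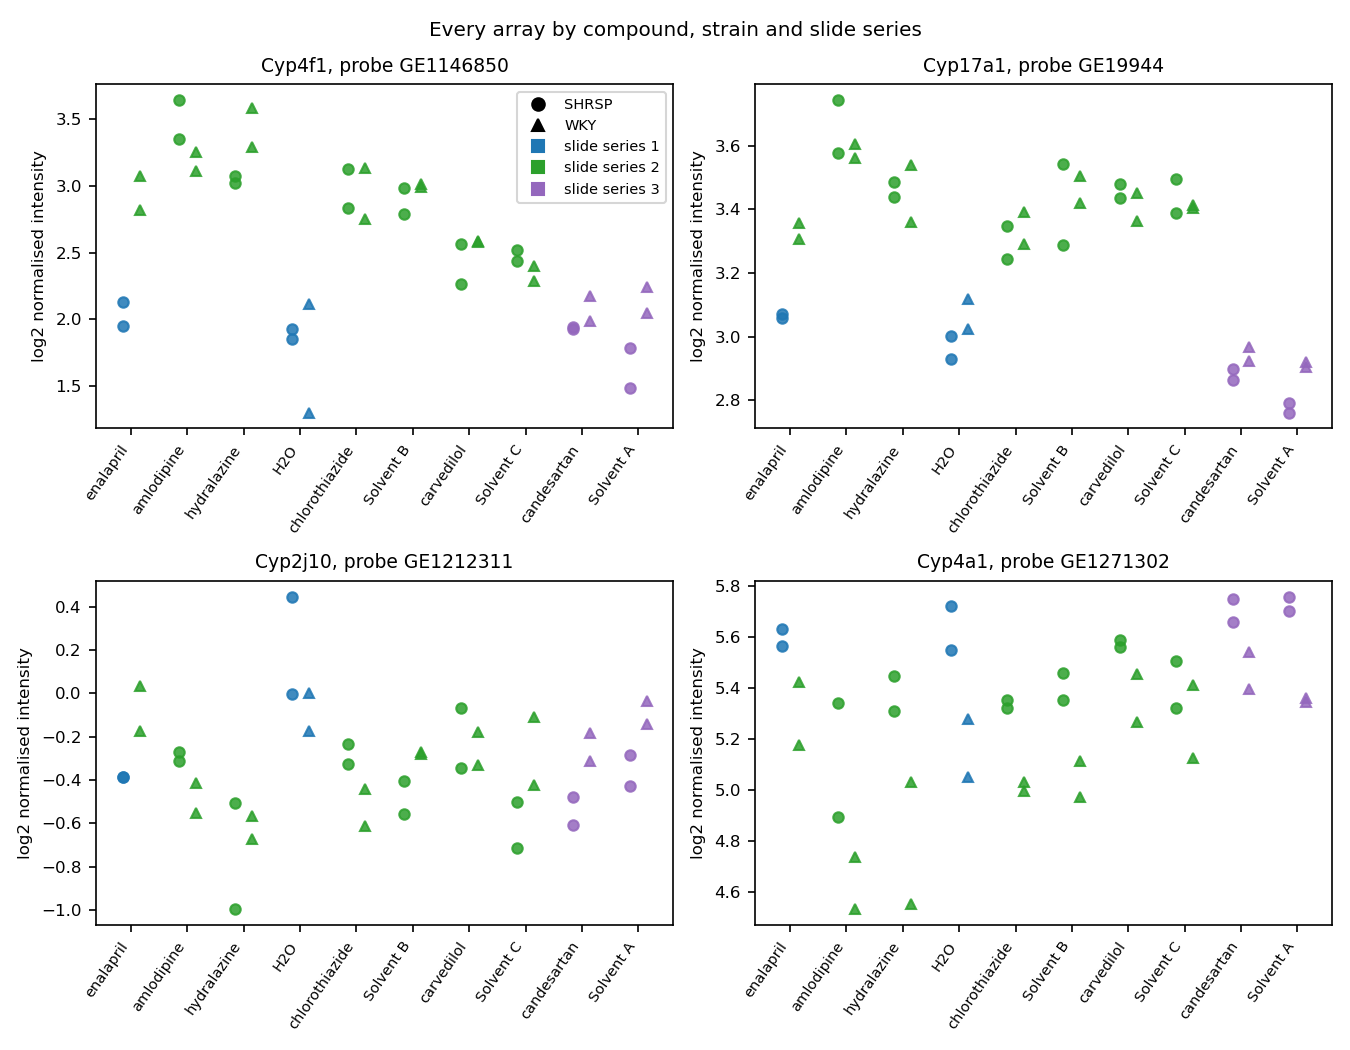
Log2 normalised intensity on every array for Cyp4f1, Cyp17a1, Cyp2j10 and Cyp4a1 by compound, with circles for SHRSP, triangles for WKY and colour for the slide series. Vehicle arrays of Cyp4f1 and Cyp17a1 on series 2 stand above those on series 1 and 3, and the amlodipine arrays of both genes stand above the Solvent B and C arrays.

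Among the 8 epoxygenases 1 was called for amlodipine and 3 for hydralazine, beside 31.4% and 29.1% of all probes. Cyp2j10 read -0.31 and -0.27 in SHRSP and -0.55 and -0.41 in WKY with amlodipine, -0.99 and -0.51 in SHRSP and -0.57 and -0.67 in WKY with hydralazine, against -0.0019 and 0.45 in SHRSP and 0 and -0.17 in WKY with H2O. The arrays of both drugs lay below all H2O arrays. Cyp2j10 differed by -0.46 ± 0.10 with amlodipine (adjusted p = 0.00204), -0.75 ± 0.10 with hydralazine (1.79e-05) and -0.48 ± 0.09 with Solvents B and C (0.000448), and against Solvents B and C amlodipine gave 0.02 and hydralazine -0.28, neither past the threshold. Cyp2j4 read 2.73 and 2.65 in SHRSP and 2.58 and 2.69 in WKY with amlodipine, 2.78 and 2.45 in SHRSP and 2.66 and 2.36 in WKY with hydralazine, against 2.83 and 2.83 in SHRSP and 3.01 and 2.70 in WKY with H2O. Hydralazine and H2O overlapped. For Cyp2j4, which oxidises retinal as well as arachidonic acid in the rat, the changes were -0.18 ± 0.09 with amlodipine (adjusted p = 0.123), -0.28 ± 0.09 with hydralazine (0.0219) and -0.45 ± 0.08 with Solvents B and C (0.000175). Set against Solvents B and C, Cyp2j4 turned to 0.26 with amlodipine (adjusted p = 0.0307) and 0.17 with hydralazine (0.235). Cyp2c6v1 read -0.02 and 0.01 in SHRSP and 0.16 and -0.02 in WKY with amlodipine, 0.25 and 0.31 in SHRSP and 0.07 and 0.27 in WKY with hydralazine, against -0.13 and -0.37 in SHRSP and -0.17 and 0.04 in WKY with H2O. The hydralazine arrays lay above those of H2O. The changes of Cyp2c6v1 were 0.19 ± 0.09 with amlodipine (adjusted p = 0.14), 0.38 ± 0.09 with hydralazine (0.00423) and 0.23 ± 0.08 with Solvents B and C (0.0386). Against Solvents B and C Cyp2c6v1 passed with neither drug. Its other probe did not pass against H2O. On that probe the hydralazine mean stood 0.51 above that of H2O, with 1 WKY array at 1.03 and the other 3 hydralazine arrays at -1.14 to -0.85. The main renal epoxygenase Cyp2c23 did not pass, at 0.38 with amlodipine and 0.05 with hydralazine, while the solvents' own change against H2O was 0.59 ± 0.19 (adjusted p = 0.02). Against Solvents B and C its signs turned, to -0.21 with amlodipine and -0.54 with hydralazine, neither past the threshold. Nor did Cyp2c11, Cyp2c22 and Cyp2j3, at 0.09, -0.13 and 0.10 with amlodipine, -0.29, -0.32 and 0.18 with hydralazine and -0.06, -0.16 and -0.12 with Solvents B and C. Cyp2c7, with no good flag on the H2O arrays, did not pass with amlodipine (adjusted p = 0.287) or hydralazine (0.247). Averaged over both strains, the lower bound of its fold was 1.12 with amlodipine and 1.13 with hydralazine. In SHRSP the arrays of both drugs lay above both H2O arrays. In WKY the higher H2O array lay above every array of either drug, so a rise there was not seen.

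All 4 other fatty acid hydroxylases were called for amlodipine and 3 for hydralazine, beside 31.4% and 29.1% of all probes. Solvents B and C against H2O called 2 of these 4 genes, beside 30.3% of all probes. Cyp4b1 read 2.52 and 2.51 in SHRSP and 2.39 and 2.56 in WKY with amlodipine, 2.64 and 2.27 in SHRSP and 2.84 and 2.33 in WKY with hydralazine, against 2.87 and 2.55 in SHRSP and 3.01 and 2.79 in WKY with H2O. The drug arrays overlapped those of H2O. Cyp4b1, which activates protoxins in the lung, differed by -0.31 ± 0.10 with amlodipine (adjusted p = 0.0195), -0.28 ± 0.10 with hydralazine (0.035) and 0.05 ± 0.09 with Solvents B and C (0.689). It was lower against Solvents B and C as well, at -0.36 ± 0.09 with amlodipine (adjusted p = 0.00832) and -0.34 ± 0.09 with hydralazine (0.0263), and the 4 amlodipine arrays lay below all 8 of those solvents. By scan session the hydralazine change of Cyp4b1 against these solvents was -0.11 on the 2 arrays of session 2 and -0.56 on the 2 arrays of session 5. Cyp2e1 read 6.86 and 6.95 in SHRSP and 6.19 and 6.43 in WKY with amlodipine, 7.03 and 6.71 in SHRSP and 6.70 and 6.55 in WKY with hydralazine, against 7.07 and 7.14 in SHRSP and 6.63 and 6.88 in WKY with H2O. Within each strain both amlodipine arrays lay below both H2O arrays. Cyp2e1 differed by -0.32 ± 0.08 with amlodipine (adjusted p = 0.00545), -0.18 ± 0.08 with hydralazine (0.108) and -0.005 ± 0.07 with Solvents B and C (0.989), and its amlodipine change against Solvents B and C was -0.32 (adjusted p = 0.00707). Its other probe gave -0.14 ± 0.07 (adjusted p = 0.177) with amlodipine. Cyp4v3 read -0.03 and 0.01 in SHRSP and -0.51 and 0.03 in WKY with amlodipine, 0.0046 and -0.55 in SHRSP and 0.0012 and -0.55 in WKY with hydralazine, against -0.997 and -0.60 in SHRSP and -0.94 and -0.56 in WKY with H2O. Every array of both drugs was above every H2O array. The counterpart of human CYP4V2, a fatty acid hydroxylase, Cyp4v3 changed by 0.65 ± 0.16 with amlodipine (adjusted p = 0.00395), 0.50 ± 0.16 with hydralazine (0.0236) and 0.47 ± 0.14 with Solvents B and C (0.0138). Cyp2u1 read 2.31 and 2.31 in SHRSP and 2.52 and 2.69 in WKY with amlodipine, 2.27 and 2.25 in SHRSP and 2.51 and 2.45 in WKY with hydralazine, against 2.65 and 2.67 in SHRSP and 2.63 and 2.72 in WKY with H2O. Hydralazine arrays were below all H2O arrays, and amlodipine arrays overlapped them in WKY. For Cyp2u1, a fatty acid hydroxylase in human brain and thymus, the changes were -0.21 ± 0.06 with amlodipine (adjusted p = 0.00886), -0.30 ± 0.06 with hydralazine (0.000741) and -0.28 ± 0.05 with Solvents B and C (0.000344). For Cyp4v3 and Cyp2u1 the solvents' change was also past the threshold, and neither gene passed against Solvents B and C. Cyp4v3 with hydralazine stood at 0.30 against Solvents B and C on the session 2 arrays and at -0.25 on those of session 5.

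Of the steroid and sterol genes, Cyp17a1, the enzyme of androgen synthesis, had the smallest p. Cyp17a1 read 3.58 and 3.74 in SHRSP and 3.61 and 3.56 in WKY with amlodipine, 3.44 and 3.49 in SHRSP and 3.36 and 3.54 in WKY with hydralazine, against 2.93 and 3.00 in SHRSP and 3.12 and 3.02 in WKY with H2O. Both drugs lay above H2O on every array. Its differences were 0.60 ± 0.05 with amlodipine (adjusted p = 3.05e-08), 0.44 ± 0.05 with hydralazine (3.01e-06) and 0.41 ± 0.05 with Solvents B and C (1.12e-06). Vehicle arrays ranged from 2.93 to 3.12 on slide series 1, 3.29 to 3.54 on series 2 and 2.76 to 2.92 on series 3. Against Solvents B and C the amlodipine change was 0.19 ± 0.05 (adjusted p = 0.00902) and that of hydralazine 0.02, which did not pass. On its other probe Cyp17a1 did not pass, at -0.35 with amlodipine and -0.28 with hydralazine. Cyp7b1 read 1.41 and 1.14 in SHRSP and 0.76 and 1.06 in WKY with amlodipine, 1.21 and 1.38 in SHRSP and 1.08 and 1.21 in WKY with hydralazine, against 1.62 and 1.73 in SHRSP and 1.06 and 0.98 in WKY with H2O. In SHRSP both drugs lay below H2O, and in WKY amlodipine overlapped it and hydralazine lay above it. Cyp7b1 differed by -0.26 ± 0.08 with amlodipine (adjusted p = 0.0195), -0.13 ± 0.08 with hydralazine (0.252) and -0.27 ± 0.07 with Solvents B and C (0.00715). Cyp46a1 read 1.00 and 1.27 in SHRSP and 1.11 and 1.23 in WKY with amlodipine, 1.26 and 1.14 in SHRSP and 1.20 and 1.28 in WKY with hydralazine, against 1.01 and 0.86 in SHRSP and 1.01 and 1.04 in WKY with H2O. Hydralazine arrays were above all H2O arrays. The changes of Cyp46a1 were 0.17 ± 0.07 with amlodipine (adjusted p = 0.0762), 0.24 ± 0.07 with hydralazine (0.0161) and 0.19 ± 0.06 with Solvents B and C (0.0289). Neither Cyp7b1 nor Cyp46a1 passed against Solvents B and C for either drug. Cyp8b1 was at the floor on all 4 H2O arrays and had a good flag on 2 of 4 arrays with each drug, both of SHRSP. It read -0.91 and -0.67 with amlodipine and -0.76 and -0.78 with hydralazine in SHRSP. Against H2O it was at least 1.08-fold higher with amlodipine and 1.09-fold with hydralazine. Cyp8b1 was tested through its SHRSP groups alone and its H2O values had no spread, so no p is given. On the 8 arrays of Solvents B and C it read -1.40 to -0.47 with the median at the floor. Against these solvents it passed with neither drug.

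Of the 17 drug-metabolising genes tested 5 were called for amlodipine and 2 for hydralazine, beside 31.4% and 29.1% of all probes. Cyp1b1 read 1.04 and 1.40 in SHRSP and 1.55 and 1.24 in WKY with amlodipine, 1.31 and 1.36 in SHRSP and 1.49 and 1.55 in WKY with hydralazine, against 1.75 and 1.73 in SHRSP and 1.65 and 1.84 in WKY with H2O. Cyp1b1, which like Cyp1a1 is induced through the aryl hydrocarbon receptor, differed by -0.43 ± 0.09 with amlodipine (adjusted p = 0.000904), -0.32 ± 0.09 with hydralazine (0.0112) and -0.22 ± 0.08 with Solvents B and C (0.0366). The arrays of both drugs lay below all H2O arrays. Cyp1a1 read -0.64 and 0.84 in SHRSP and -0.49 and -0.81 in WKY with amlodipine, -0.36 and -0.91 in SHRSP and -0.44 and -0.60 in WKY with hydralazine, against -1.17 and -0.85 in SHRSP and -0.66 and -1.40 in WKY with H2O. Cyp1a1 differed by 0.74 ± 0.24 with amlodipine (adjusted p = 0.0238), 0.44 ± 0.24 with hydralazine (0.189) and 0.70 ± 0.21 with Solvents B and C (0.0153), and 1 SHRSP amlodipine array stood far above the rest. Cyp2a2 read 1.35 and 1.59 in SHRSP and 1.66 and 1.88 in WKY with amlodipine, 1.61 and 1.13 in SHRSP and 1.66 and 1.46 in WKY with hydralazine, against 0.97 and 0.30 in SHRSP and 1.64 and 0.96 in WKY with H2O. Taken over both strains, the amlodipine and H2O arrays overlapped. The changes of Cyp2a2, a testosterone hydroxylase of male rat liver, were 0.65 ± 0.21 with amlodipine (adjusted p = 0.0214), 0.50 ± 0.21 with hydralazine (0.0796) and 0.36 ± 0.18 with Solvents B and C (0.144). Cyp2d3 read 0.21 and 0.57 in SHRSP and 0.47 and 0.41 in WKY with amlodipine, 0.12 and 0.33 in SHRSP and 0.16 and 0.38 in WKY with hydralazine, against -0.01 and -0.08 in SHRSP and 0.26 and 0.05 in WKY with H2O. Amlodipine lay above H2O within each strain. Cyp2d3 differed by 0.36 ± 0.11 with amlodipine (adjusted p = 0.0132), 0.20 ± 0.11 with hydralazine (0.176) and 0.29 ± 0.09 with Solvents B and C (0.0202). Cyp3a23-3a1 read 0.79 and 1.17 in SHRSP and 0.94 and 0.80 in WKY with amlodipine, 0.98 and 1.11 in SHRSP and 0.86 and 1.04 in WKY with hydralazine, against 0.79 and 0.50 in SHRSP and 0.70 and 0.48 in WKY with H2O. Hydralazine was above H2O on every array. For Cyp3a23-3a1, induced by steroids and drugs through the pregnane X receptor in rat liver, the changes were 0.30 ± 0.10 with amlodipine (adjusted p = 0.0295), 0.38 ± 0.10 with hydralazine (0.00881) and 0.56 ± 0.09 with Solvents B and C (8.31e-05). Of these 5 genes none passed against Solvents B and C for either drug, with changes of -0.26 to 0.29. There the sign turned for Cyp3a23-3a1 with both drugs and, with hydralazine, for Cyp1a1 (-0.26) and Cyp2d3 (-0.0955). The other 12 genes of the class did not pass against H2O for either drug. Among the partner genes, Alas1, the rate-limiting enzyme of haem synthesis, was higher by 0.95 ± 0.11 (adjusted p = 1.07e-06) with amlodipine and 1.04 ± 0.11 with hydralazine, and Fdx1, the electron carrier of mitochondrial P450 enzymes, by 0.26 ± 0.06 with amlodipine and 0.29 ± 0.06 with hydralazine. With Solvents B and C against H2O, Alas1 was higher by 0.76 ± 0.10 (adjusted p = 7.14e-06) and Fdx1 by 0.18 ± 0.05 (adjusted p = 0.0076), and these comparisons all lie across the same change of slide series.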

How the data were processed

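Kidney RNA labelled with Cy5 was measured on 40 CodeLink arrays, per the labels. Per the file headers, the authors deposited a normalised intensity and a quality flag for each of 33849 probes, and each array had a median intensity of 1. How they normalised it is not stated in the sources used here. Intensities were quantile normalised between arrays, floored at 0.38 (near the 1st percentile of values with a good flag) and taken to log2 of the deposited intensity. The 24993 probes flagged good on both arrays of 1 or more groups, with a value in every group, were tested. Symbols came from the series' probe table, updated through RefSeq (GRCr8). Probes naming several genes were not used. Where a gene had several probes, the one with the highest mean was taken and the others are given beside it.

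limma 3.58.1 in R 4.3.3 was fitted to all 40 arrays with 1 mean per group, 20 residual degrees of freedom and Benjamini-Hochberg adjustment over all probes. Scan session came from the labels' scan dates and slide series from the array titles. Samples of a group were numbered in accession order, which pairs nothing. A difference against a group without a good flag is given as "at least N-fold", the dim side being per array the highest of 3 values, the floor, the lowest good intensity and the probe's own. Tested on simulated data of 24319 probes, the fit recovered 85% of planted strain changes of 0.5 and 100% of those of 1, and for candesartan 73% and 96%. It also called 9 probes without a planted change for strain and 16 for candesartan. The simulated noise was normal and independent between arrays. In these data the correlation within session and slide series was 0.46, so the rates need not hold for them. Tables were made with Python 3.11.15, pandas 2.3.3 and NumPy 2.4.6, and plots with Matplotlib 3.10.9.

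The members, lists and tests were chosen with earlier results of these data known. By rule, the named genes were every omega-hydroxylase and epoxygenase, other members called by strain in vehicle arrays at a change of 0.5 or more or called for a drug, and the 3 with the smallest p where none was called. Others were named after their values were seen. The number of arrays limits the precision. Alternatives were other background, scaling, filter and block settings, and each array left out in turn. Added after the data were seen were Solvents B and C in place of H2O, the strain contrast of the drug arrays without the enalapril groups, and the fit without poor spots.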

Additional observations from a re-analysis of the deposited data

Results flagged for a closer look

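In the 8 vehicle arrays of a strain, 1 array stood apart from the other 7 in 5 of 90 gene and strain sets tested. For like arrays chance gives about 1 in 20, but these 8 span all vehicles and slide series, so that rate need not hold here. Cyp11a1, which cuts the cholesterol side chain, read -1.16 on a WKY Solvent C array, and the other 7 WKY vehicle arrays were at the floor of -1.40. With 7 arrays at the floor any single value above it stands apart, so the floor fixed this outcome. Cyp2d2, a drug-oxidising enzyme, read 5.28 on the other WKY Solvent C array, above the remaining 7 at 5.05 to 5.16. Cyp2d3 read 0.69 on a SHRSP Solvent C array, with the others at -0.08 to 0.25. The epoxygenase Cyp2j3 read -0.80 on a SHRSP H2O array, with the others at -1.40 to -1.18. Cyp46a1 read 1.47 on a WKY Solvent B array, with the others at 0.93 to 1.13. For the 45 genes tested, no difference in drug change between the strains passed in the 3 drugs with a vehicle on the same slide series.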

How the results depend on the processing

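The count of 11 genes called between the strains in vehicle arrays, that of 17 in drug arrays and the counts of 0 under candesartan, chlorothiazide and carvedilol stayed within 1.5 times under the alternatives run other than leaving out arrays. With 1 array left out at a time, the strain count was 9 to 11 in vehicle arrays and 13 to 16 in drug arrays, and the counts for candesartan, chlorothiazide, carvedilol, the matched drugs in WKY and the strain difference of the drug change remained 0. The matched drugs in SHRSP gave 0 to 1, the 1 being Cyp3a9 without SHRSP H2O array 1. For enalapril against H2O the count of 2 became 1 with normexp and with the authors' deposited table, and 0 with probes flagged good on all 40 arrays, with session and slide series as a random block and with only the compared groups fitted, and was 1 to 4 with an array left out. In SHRSP alone the count of 1 became 0 with median scaling, the authors' table, no filter, the trended robust fit and only the compared groups, and was 0 to 2 with an array left out (2 without SHRSP H2O array 1, 0 without any of the other 3). For amlodipine the count of 17 became 2 with session as a fixed block, 2 with the random block, 8 with only the compared groups and 7 against Solvents B and C, and was 11 to 18 with an array left out. For hydralazine the count of 15 became 1, 3, 5 and 4 under the same settings, and was 11 to 14. Of the genes called against H2O, the sign turned against Solvents B and C under amlodipine for Cyp2j10 (0.02), Cyp2u1 (0.0655), Cyp7b1 (0.0068) and Cyp3a23-3a1 (-0.26), and under hydralazine for Cyp2j4 (0.17) and Cyp3a23-3a1 (-0.18). The cause of these changes was not tested. No paired analysis was possible because the labels give no replicate numbers. Groups of 2 arrays, 6 members with a good flag on under 30 arrays and possible cross-hybridisation of near-identical genes limit these values.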
